A study of Homo sapiens with 41 samples.

Results

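A set of 9 genes tied to the contractile actin cytoskeleton was followed through all samples, out of 23588 gene symbols listed over the 6 deposited tables. They are ACTA2, TAGLN, CNN1, MYL9, TPM1 and TPM2, which build or dress contractile actin filaments, VCL, which ties filaments to focal adhesions, SRF, the transcription factor for which many of these genes are textbook targets, and PHACTR1, which binds actin monomers. The genes were taken by symbol, and all 9 were found in each of the 6 tables. The set was chosen by a look at results of these same data, over the contrasts of each drug with its vehicle, at both A375 times, and of mixed with lone A375R tumours. Values of the 9 genes in those contrasts are therefore a description, and no p-value is given for a single gene of the set in them.

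SRF binds a short DNA element called the CArG box, and works with either of a pair of partner families. The ternary complex factors ELK1, ELK3 and ELK4 are phosphorylated by the ERK kinases and drive immediate early genes such as EGR1 and FOS. The myocardin-related factors MKL1 and MKL2 are held by actin monomers and reach the nucleus when monomers are built into filaments, and they drive smooth muscle and cytoskeletal genes. PHACTR proteins compete with MKL factors for actin monomers. Smooth muscle actin, transgelin and calponin are best known from smooth muscle, pericytes and activated fibroblasts, but cancer cells can express them too.

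The series held 41 samples in 15 groups. The human melanoma lines A375, Colo800 and UACC62 met vemurafenib, an inhibitor of mutant BRAF. The line H3122, from a human lung adenocarcinoma, met crizotinib, an inhibitor of ALK. Whole-cell RNA came from A375 cells with vehicle, vemurafenib for 6 h or vemurafenib for 48 h (0.1 µM, n = 3 each), from Colo800 and UACC62 cells with vemurafenib for 48 h (1 µM) or vehicle (n = 2 each), and from H3122 cells with crizotinib for 48 h (0.3 µM) or vehicle (n = 2 each). All cultures, vehicle included, were in medium with 2% serum during treatment, after growth in 10%. Tumours were grown in mice from cells injected under the skin with matrigel. RNA from tumours was ribosome-bound RNA, pulled down on beads that bind GFP. A375 tumours had 10 doses of vemurafenib at 75 mg/kg or vehicle (n = 4 each), and tumours of the resistant line A375R, either mixed with A375 cells or alone, had the same dosing or vehicle (n = 3 in each of the 4 groups). That mixed tumours held both lines was read from the titles and growth protocol, and that only A375R cells carried the ribosome tag there is an assumption. The strain and age of the mice and the derivation of A375R are not stated in the labels. Nothing in the labels says that replicates came from separate cultures, so spreads may be technical. A chi-square per degree of freedom between replicate libraries is near 1 where they differ by counting noise alone. It was 1.71 and 1.74 in the Colo800 groups and 1.29 in UACC62 with vehicle, against 5.56 to 30.4 in A375 cultures. Small SEs and p-values in Colo800 may thus measure little beyond counting noise.

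Libraries held 8063754 to 42843612 reads. Values below are reads divided by the authors' size factor of the library, called normalised reads, and log2 changes are differences of log2(value + 1) with the SE of the limma fit. The check of the labels against marker genes was mixed. H3122 had 48288 to 77859 summed normalised reads of lung epithelial markers, and 252 to 281 of melanoma markers. Colo800 and UACC62 had 27571 to 189548 of melanoma markers. In A375 cultures the pigment genes PMEL, MLANA and TYR averaged at most 23.5, 12.3 and 0.688 in a group, while SOX10 averaged at least 6098. DCT, another pigment gene, averaged 2.71 with vehicle, 37.5 at 6 h and 2930 at 48 h there. A375R tumours had 464 to 1975, with TYR at 0 in every library, beside 21546 to 45347 of the lung epithelial list. Nearly all of that was the keratin KRT18 (mean 21640.4 in lone vehicle tumours), while NAPSA and EPCAM averaged 1.42 and 1.47 there and CDH1 was at 0. By these markers the melanoma origin of A375R was weakly marked.

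Several of the genes share DNA with a neighbour, and the library kit does not mark strand. ACTA2 overlaps FAS, TAGLN overlaps PCSK7 and LOC100652768, VCL overlaps AP3M1, and PHACTR1 overlaps LOC100130357 among genes that the tables list, by RefSeq's annotation. The labels do not say how reads in such overlaps were counted. CNN1, TPM2 and SRF overlapped no annotated gene. Members with near copies (TPM1 and TPM2 with TPM3 and TPM4, MYL9 with MYL12A and MYL12B, TAGLN with TAGLN2, ACTA2 with ACTG2, CNN1 with CNN2) are uncertain where reads fit both copies.

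The promoter windows of SRF and ACTA2 are shown because, of the genes read, these hold the element that SRF binds. RefSeq's windows (GRCh38.p14, 250 bases before to 50 after each annotated start, on the gene's strand) were read for 7 of the 9 genes. A CArG box was searched as CC, then 6 bases that are each A or T, then GG, and also with 1 of the 6 inner bases being G or C. The element reads in the same form on the other strand, so 1 pass covers both. Capitals mark matches.
SRF, chr6:43171019-43171318, plus strand: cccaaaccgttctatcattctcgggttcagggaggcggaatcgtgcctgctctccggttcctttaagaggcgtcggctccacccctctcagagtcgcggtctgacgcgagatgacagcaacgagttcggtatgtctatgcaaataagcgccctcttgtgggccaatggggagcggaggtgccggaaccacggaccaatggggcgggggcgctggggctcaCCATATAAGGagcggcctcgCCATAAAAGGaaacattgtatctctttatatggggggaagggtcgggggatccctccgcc
ACTA2, chr10:88952724-88953023, minus strand: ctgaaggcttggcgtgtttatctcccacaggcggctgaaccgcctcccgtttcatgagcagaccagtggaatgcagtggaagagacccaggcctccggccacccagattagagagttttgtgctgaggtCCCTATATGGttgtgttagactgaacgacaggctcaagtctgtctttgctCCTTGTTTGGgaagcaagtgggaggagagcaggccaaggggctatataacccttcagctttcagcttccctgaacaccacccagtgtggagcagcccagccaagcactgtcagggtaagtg
The SRF window held 2 exact boxes, which begin 30 and 10 bases before the annotated start. The ACTA2 window held 2 boxes with 1 inner base changed, 121 and 71 bases before the start. No match lay in the other window of each gene or in any window of VCL, CNN1, TPM1, TPM2 and PHACTR1. Of all 35116 windows, 1.29% held an exact box, 8.13% held an exact or once-changed box, and 11 windows (0.031%) held at least 2 exact boxes. A match is a description of the letters and not a measured binding site.

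Without drug, the groups carried very different amounts of these transcripts. Cultures gave whole-cell RNA and tumours ribosome-bound RNA, and A375R was read only in tumours. Between cultures and tumours, growth site and RNA kind cannot be told apart, nor line from either for A375R. As the tables were normalised separately, levels across them are given as RPM, reads scaled to 1 common library total, as a description. ACTA2 was highest in UACC62 (26.8 ± 2.80, SD, n = 2) and in A375R tumours alone (22.8 ± 4.35, n = 3) or mixed (21.2 ± 6.27, n = 3), whose ranges overlapped. A375 tumours (9.51 ± 1.09, n = 4) and A375 cultures (8.41 ± 5.68, n = 3) overlapped with each other, Colo800 had 2.17 ± 0.169 and H3122 0.442 ± 0.0405 (n = 2 each). The order for TAGLN was A375R mixed (10.3 ± 0.882), A375R alone (4.66 ± 0.557), then A375 cultures (2.24 ± 0.101), A375 tumours (1.73 ± 0.402), UACC62 (1.72 ± 0.409) and Colo800 (1.55 ± 0.358), each of which overlapped with the next, with H3122 last (0.649 ± 0.252). UACC62, among the groups with most ACTA2, thus overlapped with A375 tumours and Colo800 for TAGLN. It lay below A375 cultures (1.43 to 2.01 against 2.16 to 2.35).

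MYL9 divided the vehicle groups most sharply. It had 24.5 ± 5.76 RPM in vehicle tumours of A375R mixed and 15.7 ± 0.923 in A375R alone, 19.5 ± 1.53 in A375 tumours, 7.26 ± 1.93 in A375 cultures and 1.22 ± 0.461 in H3122. Colo800 had 0.0690 ± 0.000723, which is 1 read per library, and no read was counted in either UACC62 vehicle library. TPM2 was similarly split, with 580.1 ± 15.9 in A375R alone, 575 ± 52.3 in A375R mixed, 328 ± 37.0 in A375 tumours and 221 ± 26.1 in A375 cultures, against 15.6 ± 0.428 in UACC62, 13.6 ± 0.0526 in Colo800 and 6.56 ± 2.15 in H3122. TPM1 did not follow TPM2, since UACC62 (169 ± 1.66) and Colo800 (114 ± 4.76) lay above A375 tumours (72.5 ± 6.48) and A375 cultures (69.2 ± 36.0), below A375R mixed (284 ± 7.97) and alone (209.6 ± 18.9), and above H3122 (35.0 ± 1.85).

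SRF itself varied little by comparison. The highest mean was 98.9 ± 3.73 RPM in A375 tumours and the lowest 42.5 ± 1.31 in UACC62, with A375R mixed (87.4 ± 9.65), A375R alone (79.9 ± 10.2), A375 cultures (65.3 ± 5.33) and Colo800 (59.6 ± 2.3) overlapping their neighbours in turn, and H3122 at 56.6 ± 1.82. PHACTR1 was highest in Colo800 (49.1 ± 0.661) and UACC62 (8.66 ± 0.891) and under 1 in the means of every other vehicle group, down to 0.136 ± 0.00236 in H3122. VCL was highest in H3122 (185 ± 19.7), UACC62 (167 ± 4.50) and Colo800 (146 ± 7.30), and lowest in A375 tumours (52.2 ± 5.13). CNN1 reached 2.91 ± 0.415 in A375 tumours and about 0.6 in A375R tumours (0.611 ± 0.0742 mixed, 0.579 ± 0.186 alone), and in vehicle cultures it had at most 1.88 normalised reads in a library.

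**Figure D1:**
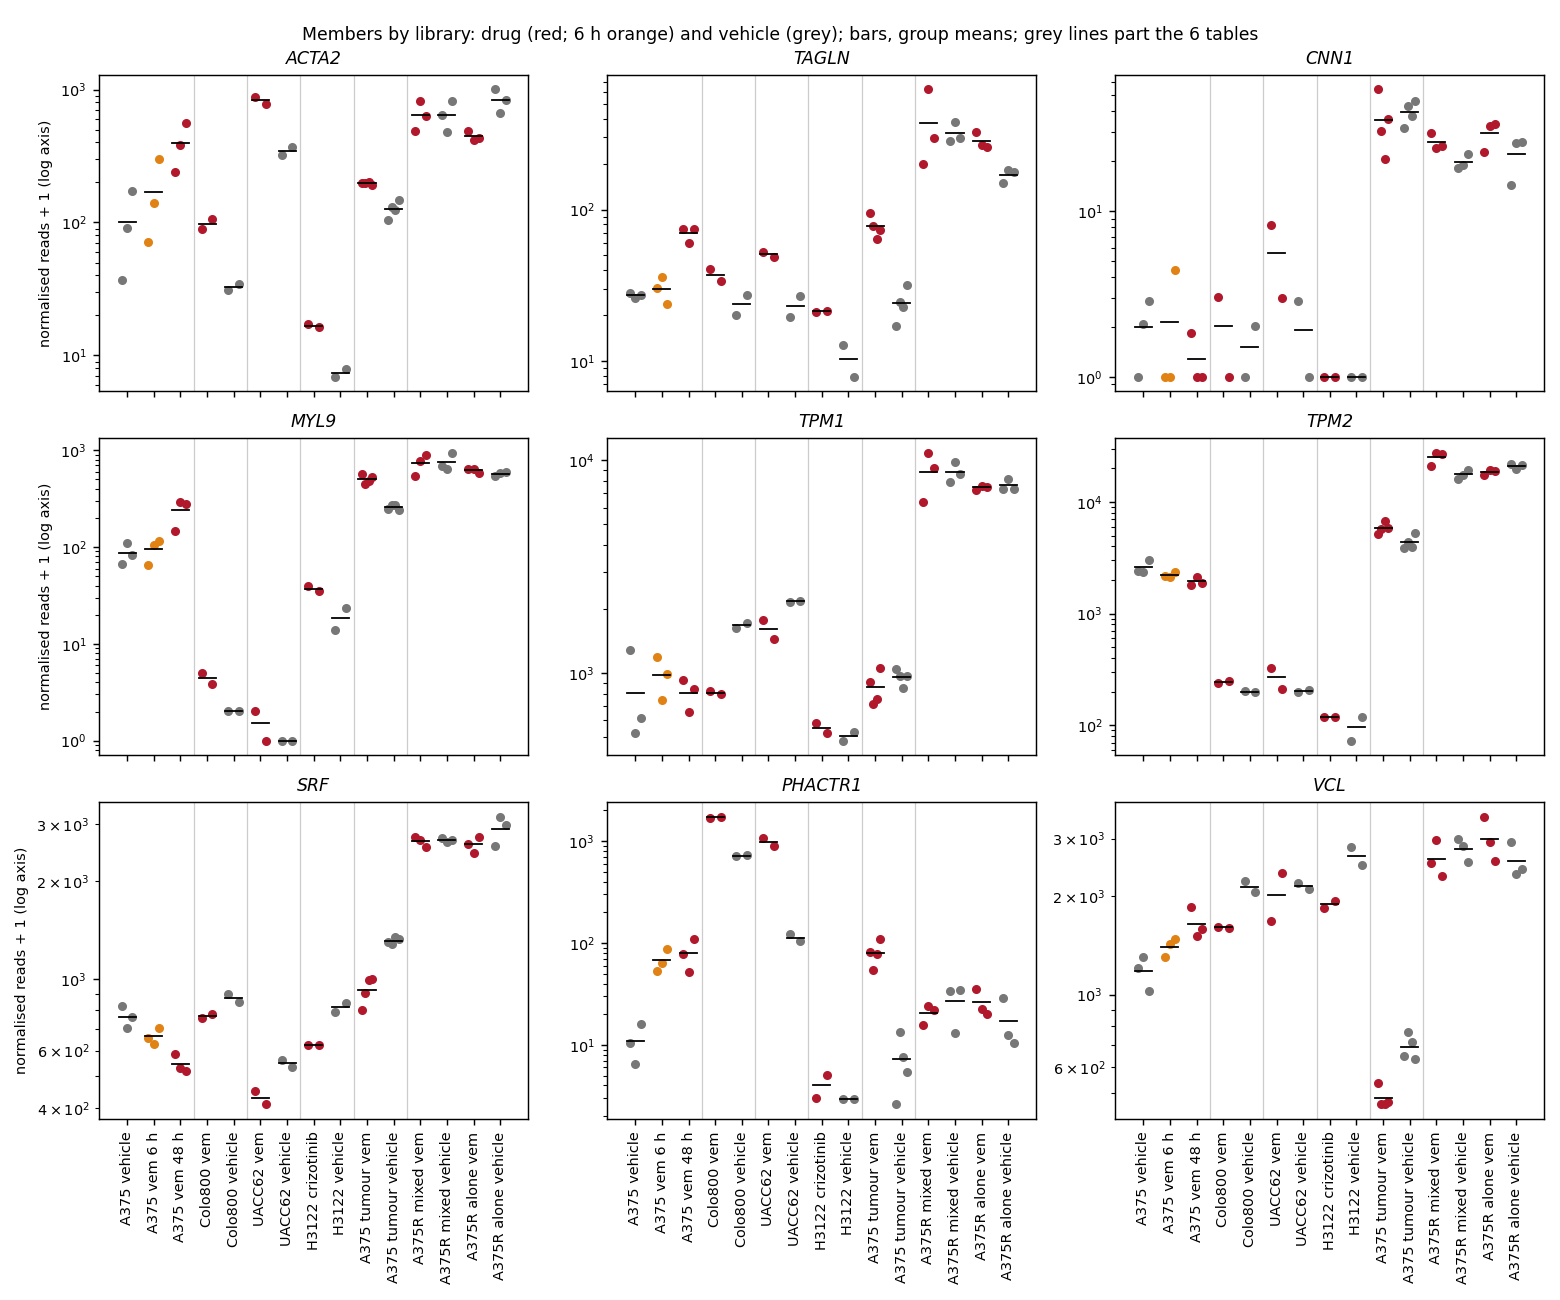
Normalised reads plus 1 (log axis) of the 9 genes, 1 point per library with a bar at the group mean, for the 15 groups in 6 tables that were normalised separately. MYL9 sits at 0 reads in both UACC62 vehicle libraries, and ACTA2 in drug-treated melanoma cultures and A375 tumours lies above its vehicle, except for the overlap at 6 h in A375.

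Not every gene could be fitted everywhere. A gene was tested in a table when its mean over all libraries of that table was at least 10 normalised reads, which left out CNN1 in all 4 culture tables, MYL9 in Colo800 and UACC62, and PHACTR1 in H3122. In A375 cultures 1 of 8 tested members, PHACTR1, was past an adjusted p of 0.05 at 6 h, where 4.40% of all 13816 genes tested were past it. At 48 h, 7 of 8 were past it (5 higher, 2 lower), against 50.0% of all genes. The numbers were 7 of 7 in Colo800 (4 higher, 3 lower; 73.3% of all genes), 5 of 7 in UACC62 (3 higher, 2 lower; 56.5%), 5 of 7 in H3122 (3 higher, 2 lower; 46.1%) and 7 of 9 in A375 tumours (5 higher, 2 lower; 68.3%). In A375R tumours 1 of 9 was past the threshold in mixed tumours (TPM2, higher; 3.48% of all genes) and 1 of 9 in tumours alone (ACTA2, lower; 0.792%). As these contrasts chose the genes, nothing is read from the counts.

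SRF mRNA, in normalised reads, was lower with the drug wherever the drug moved many genes. In A375 cultures it had 825, 702 and 762 normalised reads with vehicle, 655, 630 and 703 at 6 h and 583, 531 and 520 at 48 h. The 6 h libraries overlapped with vehicle by 1 value and all 48 h libraries lay below both other groups. Colo800 had 757 and 779 with vemurafenib against 899 and 847 with vehicle, UACC62 had 448 and 409 against 562 and 534, and H3122 had 624 and 625 with crizotinib against 789 and 841 with vehicle. None of these pairs of groups overlapped, though in RPM the Colo800 groups did (57.1 to 59.0 with vemurafenib against 57.9 to 61.2 with vehicle). In A375 tumours SRF had 802, 906, 989.7 and 999 with vemurafenib, against 1297, 1276, 1343 and 1325 with vehicle, again without overlap. The log2 changes were -0.20 ± 0.11 at 6 h and -0.48 ± 0.11 at 48 h in A375, -0.18 ± 0.06 in Colo800, -0.36 ± 0.11 in UACC62, -0.38 ± 0.09 in H3122 and -0.51 ± 0.08 in A375 tumours, so the differences were small and of one sign. The Colo800 call was lost without vehicle library 1 (-0.14) or vemurafenib library 1 (-0.16) and with quantile normalisation (-0.11), and the UACC62 call was lost without either vehicle library (-0.32 and -0.39). In A375R tumours the groups overlapped: mixed tumours had 2737, 2679.6 and 2541 with vemurafenib against 2711, 2646 and 2681 with vehicle, and tumours alone had 2604, 2447 and 2741 against 2558, 3163 and 2987.

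ACTA2, which encodes smooth muscle actin, was higher with the drug in all 4 cultures and in A375 tumours. A375 cultures had 35.7, 90.0 and 171 normalised reads with vehicle, 69.8, 138 and 297 at 6 h, and 237, 381 and 560 at 48 h. In each of the 3 groups the library numbered 1 was lowest and that numbered 3 highest, and all 48 h libraries lay above all vehicle libraries while 6 h overlapped with both. Changes from vehicle were 0.78 ± 0.60 at 6 h and 2.16 ± 0.60 at 48 h. Colo800 had 89.1 and 104 with vemurafenib against 30.2 and 33.5 with vehicle (1.57 ± 0.19), and UACC62 had 871 and 782 against 322 and 370.2 (1.26 ± 0.12). H3122 had 16.1 and 15.4 with crizotinib against 5.90 and 6.85 with vehicle (1.19 ± 0.40), from low counts, a call that was lost without vehicle library 1 (1.09) and with quantile normalisation (0.95). A375 tumours had 197, 197, 201 and 189.8 with vemurafenib against 104, 130, 124 and 147 with vehicle (0.64 ± 0.12). The tumour groups stood apart, but by less on the log2 scale than in A375 cultures.

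The gene that overlaps ACTA2 rose with it past the threshold only in H3122. FAS, which encodes a death receptor, changed by -0.50 ± 0.32 at 48 h in A375 cultures (limma adjusted p = 0.21), by 0.02 ± 0.12 in Colo800 (adjusted p = 0.907) and by 0.24 ± 0.13 in UACC62 (adjusted p = 0.146). In A375 tumours FAS fell by 1.76 on the log2 scale (± 0.10, limma adjusted p = 1.07e-10), while ACTA2 was higher. In H3122 FAS rose by 0.60 ± 0.22 (limma adjusted p = 0.0396).

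TAGLN encodes transgelin, an actin-binding protein of smooth muscle. In A375 cultures it had 27.3, 24.9 and 26.3 normalised reads with vehicle, 29.5, 34.6 and 22.8 at 6 h, and 73.6, 58.9 and 74.0 at 48 h. It thus stood at the vehicle level at 6 h (0.12 ± 0.24) and above it in every library at 48 h (1.35 ± 0.24). Colo800 had 39.5 and 32.6 with vemurafenib against 19.1 and 26.4 with vehicle (0.65 ± 0.27), UACC62 had 51.8 and 48 against 18.5 and 25.8 (1.15 ± 0.26), and H3122 had 20.1 and 20.5 with crizotinib against 11.8 and 6.85 (1.09 ± 0.38). A375 tumours had 93.9, 77.2, 62.8 and 72.7 with vemurafenib against 16.0, 23.5, 21.9 and 30.6 with vehicle (1.71 ± 0.21). No pair of groups overlapped in these 4 contrasts. The Colo800 call was lost without vehicle library 1 (0.43) or vemurafenib library 1 (0.52), and the H3122 call without vehicle library 2 (0.74) or either crizotinib library (1.10 and 1.08). With no filter on low values both of these calls were lost, and quantile normalisation ended the H3122 call too (0.85). LOC100652768, which shares DNA with TAGLN, rose in the same 5 contrasts in which TAGLN was past the threshold, by 1.71 ± 0.20 at 48 h in A375 cultures (limma adjusted p = 7.62e-05), 1.16 ± 0.16 in Colo800 (adjusted p = 2.6e-06), 0.68 ± 0.14 in UACC62 (adjusted p = 0.003), 1.28 ± 0.23 in H3122 (adjusted p = 0.000874) and 1.99 ± 0.16 in A375 tumours (adjusted p = 8.13e-09). Reads of the 2 genes cannot be told apart where they overlap. PCSK7, the other neighbour, rose by 0.29 ± 0.07 in Colo800 (limma adjusted p = 0.000784) and 0.38 ± 0.12 in UACC62 (adjusted p = 0.0219), where TAGLN was higher too. It changed by 0.02 ± 0.10 at 48 h in A375 cultures (limma adjusted p = 0.862), by -0.06 ± 0.09 in H3122 (adjusted p = 0.606) and by -0.30 ± 0.10 in A375 tumours (adjusted p = 0.0134).

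MYL9, a regulatory light chain of myosin II, was also higher at 48 h where it was expressed. It had 65.1, 108 and 80.9 normalised reads with vehicle in A375 cultures, 63.9, 103 and 114 at 6 h, and 146, 289 and 279 at 48 h. The 6 h libraries overlapped with vehicle (0.13 ± 0.31) and the 48 h libraries lay above both (1.45 ± 0.31 against vehicle). H3122 had 38.3 and 33.9 with crizotinib against 12.8 and 22.5 with vehicle (1.04 ± 0.31), a call lost without vehicle library 1 (0.65) or crizotinib library 1 (0.95), with no filter on low values and with quantile normalisation (0.82). A375 tumours had 561, 451, 477 and 534 with vemurafenib against 247, 274, 271 and 242 with vehicle (0.96 ± 0.09), with no overlap. In Colo800 it had 4.05 and 2.88 with vemurafenib against 1.01 and 1.02 with vehicle, and in UACC62 1.04 and 0 against 0 and 0, too few reads for a fold. CNN1, the smooth muscle calponin, did not join them. A375 tumours had 53.5, 29.4, 19.6 and 34.7 with vemurafenib against 30.5, 42.3, 36.6 and 45.1 with vehicle (-0.24 ± 0.26), which overlapped, and the highest culture value was 7.25 in 1 UACC62 library with vemurafenib.

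The tropomyosins TPM1 and TPM2, which run along actin filaments, differed in direction between lines. TPM1 was lower in Colo800, with 822 and 795 normalised reads with vemurafenib against 1630.5 and 1721 with vehicle (-1.05 ± 0.05), and in UACC62, with 1772 and 1442 against 2169 and 2184 (-0.44 ± 0.11; call lost without either vehicle library). It overlapped between groups in A375 cultures, where the vehicle libraries ranged from 524 to 1284 and those at 48 h from 654 to 926 (0.10 ± 0.30). A375 tumours had 912, 718, 757 and 1051 with vemurafenib against 1050.3, 968, 851 and 974 with vehicle (-0.17 ± 0.11). Overlap was also seen in H3122 (0.13 ± 0.10) and in A375 tumours, where the gene passed without vemurafenib library 4 (-0.28).

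TPM2 in A375 cultures had 2420, 2358 and 2991 with vehicle, 2151, 2106 and 2361 at 6 h, and 1810, 2135 and 1876 at 48 h, all of the last below vehicle (-0.41 ± 0.12). That call was lost without vehicle library 3 (-0.30), without 48 h library 1 (-0.36) or 3 (-0.39), and with quantile normalisation (-0.27). In A375 tumours it had 5211, 5771, 6816 and 5807 with vemurafenib against 3834, 4388, 3973 and 5222 with vehicle (0.44 ± 0.10). The tumour values were thus mostly higher with the drug, with 1 vehicle library above 1 treated library, while the culture values were lower. Colo800 had 237 and 247 with vemurafenib against 200 and 198 with vehicle (0.28 ± 0.10), a call lost without vehicle library 2 (0.27) or vemurafenib library 2 (0.25), and UACC62 had 324 and 211 against 198 and 204 (0.38 ± 0.19). UACC62 passed without vemurafenib library 2 (0.69), and H3122, at 117 and 117 with crizotinib against 71.8 and 117 with vehicle (0.34 ± 0.21), passed without vehicle library 2 (0.70).

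VCL, the focal adhesion protein vinculin, also had no common direction. A375 cultures had 1202, 1300.5 and 1027 normalised reads with vehicle, 1298, 1423 and 1476 at 6 h, and 1854, 1506 and 1584 at 48 h (0.49 ± 0.13 at 48 h against vehicle). The 48 h libraries lay above all others. In A375 tumours the order was opposite, with 537, 462, 459.9 and 469.6 with vemurafenib against 646, 766, 716 and 633 with vehicle (-0.52 ± 0.09). Colo800 had 1614 and 1602 against 2218 and 2057 (-0.41 ± 0.05), and H3122 had 1843 and 1929.5 with crizotinib against 2835 and 2484 (-0.49 ± 0.09). The UACC62 groups overlapped, since the 2 vemurafenib libraries had 1673 and 2349.8, below and above the vehicle libraries at 2198 and 2101, and the gene passed in opposite directions without the first (0.13) or the other (-0.36). AP3M1, which overlaps VCL, rose by 0.33 ± 0.12 at 48 h in A375 cultures (limma adjusted p = 0.0453).

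PHACTR1 was higher with vemurafenib in cultures of the 3 melanoma lines and in A375 tumours, from a low base in A375. Cultures had 9.45, 5.42 and 15.1 normalised reads with vehicle, 52.1, 62.5 and 86.8 at 6 h, and 76.9, 50.6 and 108 at 48 h. Both times stood above vehicle in every library, by 2.70 ± 0.39 and 2.89 ± 0.39. A375 tumours had 79.7, 53.8, 76.1 and 109 with vemurafenib against 1.60, 12.5, 6.62 and 4.37 with vehicle (3.67 ± 0.39). UACC62 had 1059 and 901 with vemurafenib against 120.1 and 103 with vehicle (3.12 ± 0.14), and Colo800, with the highest vehicle level, had 1684 and 1741 against 715 and 725 (1.25 ± 0.05). H3122 had 2.01 and 4.10 with crizotinib against 1.97 and 1.96, at or near 2 to 4 reads. The 6 h value in A375 was one of the results that led to the gene being included.

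**Figure D2:**
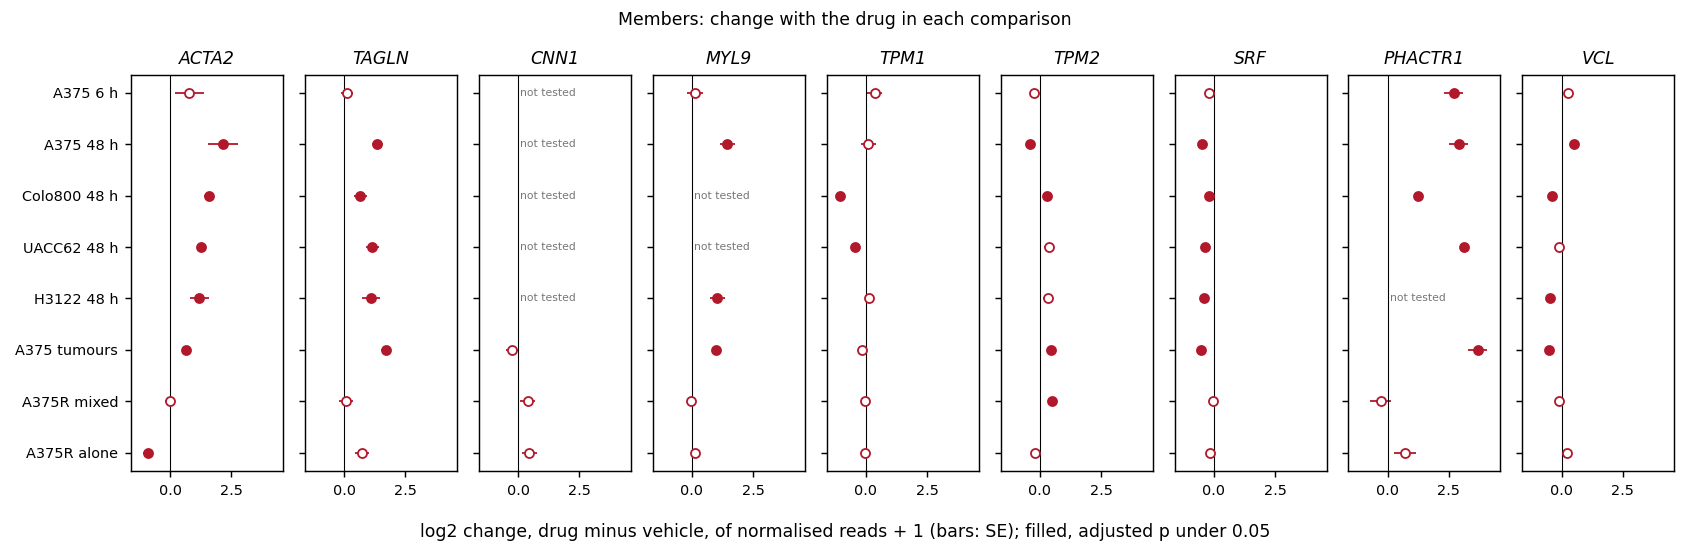
Log2 change of each gene with the drug (drug minus vehicle, of normalised reads plus 1) in 8 contrasts, with the SE of the fit as bars and filled points where the adjusted p was under 0.05. SRF lies left of 0 in all 8 contrasts and past the threshold in 5, while ACTA2, TAGLN and PHACTR1 lie right of 0 wherever a culture or A375 tumours were tested.

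The contrast of 48 h with 6 h in A375 was not among those that chose the genes, though it uses the same libraries and its p-values are not independent of that choice. TAGLN rose between the times by 1.23 ± 0.24 (limma adjusted p = 0.00215) and MYL9 by 1.32 ± 0.31 (limma adjusted p = 0.00731). These were 2 of 8 tested, where 39.3% of all genes passed. ACTA2 changed by 1.37 ± 0.60 (limma adjusted p = 0.0919) and SRF by -0.28 ± 0.11 (limma adjusted p = 0.068). PHACTR1 changed by 0.19 ± 0.39 (limma adjusted p = 0.728), with its libraries overlapping between the times. Libraries of 1 replicate number deviated together, and with the number as a block 4 of 8 passed (50.0% of all genes), with ACTA2 at an adjusted p of 0.000161 and SRF at 0.0362 in limma. With the block, ACTA2 was also past the threshold at 6 h against vehicle, as 1 of 2 of 8 genes, where 10.6% of all genes were. Without 6 h library 3, ACTA2 passed between the times (1.90, limma adjusted p = 0.0296).

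**Figure D3:**
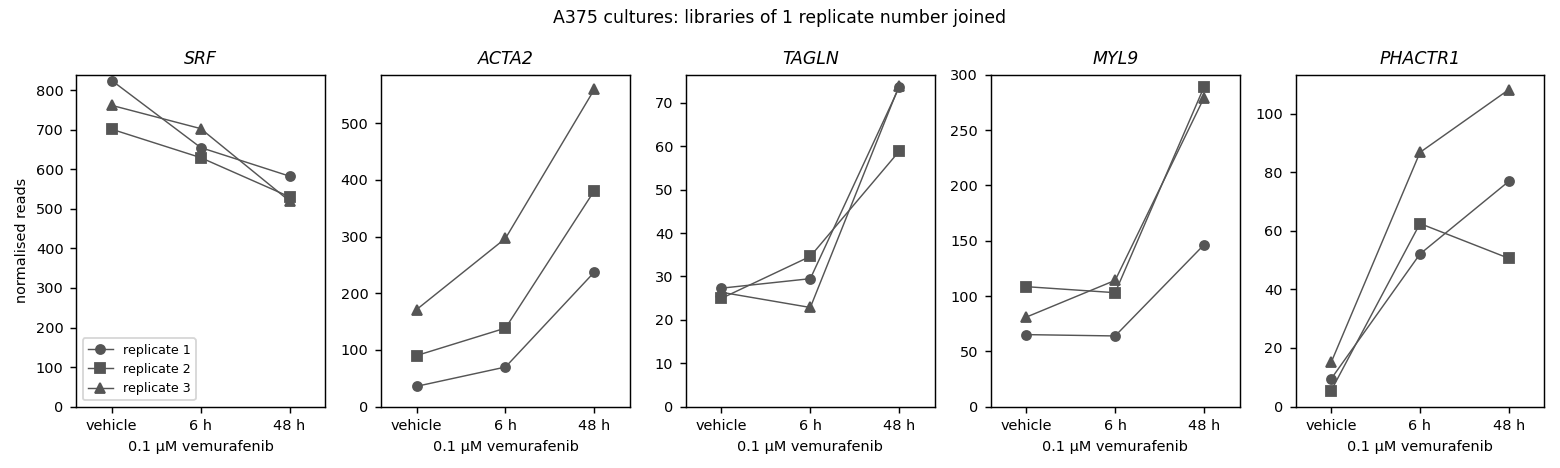
Normalised reads of SRF, ACTA2, TAGLN, MYL9 and PHACTR1 in A375 cultures with vehicle and after 6 h and 48 h of vemurafenib, with libraries of 1 replicate number joined by a line. PHACTR1 is already high at 6 h, TAGLN and MYL9 are high only at 48 h, and ACTA2 keeps the order of its replicate numbers in all 3 groups.

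In A375R tumours few of the genes differed between drug and vehicle. ACTA2 had 486, 817 and 632 normalised reads in mixed tumours with vemurafenib against 642, 478 and 817 in mixed tumours with vehicle (0.00 ± 0.20). In tumours of A375R alone it had 483, 414 and 434 with vemurafenib against 1009, 660.2 and 827 with vehicle (-0.89 ± 0.20). The lone tumours did not overlap and lay in the direction opposite to A375 tumours, but the call was lost when any 1 of the 6 libraries was left out, with a pseudocount of 5, with no filter on low values and with edgeR. TAGLN had 200.5, 627 and 296 in mixed tumours with vemurafenib against 281, 379.8 and 296 with vehicle (0.08 ± 0.28). Tumours alone had 324, 268 and 259 against 149.9, 182 and 175 (0.74 ± 0.28), apart but not past the threshold over all genes. MYL9, TPM1 and VCL overlapped between drug and vehicle in both kinds of tumour, with changes from -0.11 ± 0.13 to 0.22 ± 0.13.

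The remaining values in A375R tumours show how wide the spread was. CNN1 had 28.4, 23.0 and 23.8 normalised reads in mixed tumours with vemurafenib against 17.3, 17.9 and 21.1 with vehicle (0.40 ± 0.31), and 21.6, 31.8 and 32.3 in lone tumours with vemurafenib against 13.4, 24.6 and 25 with vehicle (0.45 ± 0.31). In normalised reads the mixed groups did not overlap for CNN1 and the lone groups did. In RPM the mixed groups overlapped too, at 0.643 to 0.837 with vemurafenib against 0.531 to 0.678 with vehicle. PHACTR1 had 14.6, 23.0 and 21.0 in mixed tumours with vemurafenib against 32.8, 11.9 and 33.4 with vehicle, and 34.7, 21.5 and 19.1 in lone tumours with vemurafenib against 28.0, 11.5 and 9.53 with vehicle. These groups overlapped, at -0.29 ± 0.44 in mixed and 0.70 ± 0.44 in lone tumours. TPM1 had 6365, 10856 and 9169.6 in mixed tumours with vemurafenib against 7923, 9836 and 8585 with vehicle. The mixed vemurafenib libraries lay on both sides of their vehicle, while the lone tumours ranged from 7242 to 7614 with vemurafenib and from 7351 to 8142 with vehicle.

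TPM2 was the member whose drug response differed between the 2 kinds of A375R tumour. It had 21187, 27617 and 26679 normalised reads in mixed tumours with vemurafenib against 16092, 17546 and 19441 with vehicle (0.50 ± 0.12; call lost without mixed vehicle library 1, or mixed vemurafenib library 2 or 3, or with quantile normalisation, 0.32), and 17476, 19164 and 18751 in tumours alone with vemurafenib against 21943, 19847 and 21564 with vehicle (-0.19 ± 0.12). In normalised reads the libraries with drug lay above vehicle in mixed tumours and below it in lone tumours. In RPM the lone groups overlapped, at 539 to 604 with vemurafenib against 564 to 596 with vehicle. The mixed groups parted in RPM only at 624.4 against 624.3. The interaction, the response in mixed minus that in lone tumours, was 0.70 ± 0.17 (limma adjusted p = 0.0388), 1 of 9 members where 2.89% of all genes passed. As the interaction is built from the contrasts that chose the genes, its p-values are not independent of that choice. Leaving out any of 8 of the 12 libraries, among them every lone vehicle library, ended the call (adjusted p from 0.0537 to 0.111), as did quantile normalisation (0.39, limma adjusted p = 0.125) and testing with no filter on low values (0.70, limma adjusted p = 0.0645). ACTA2 had an interaction of 0.89 ± 0.28 (limma adjusted p = 0.0948), and it passed without mixed vehicle library 3 (1.08, adjusted p = 0.0442) or mixed vemurafenib library 1 (1.08, adjusted p = 0.0405). TAGLN had one of -0.66 ± 0.39 (limma adjusted p = 0.372), which passed without mixed vemurafenib library 2, the library with 627 reads (-1.12, adjusted p = 0.0446). Some other markers moved with TPM2 in mixed tumours. Fibroblast markers summed to 2896 to 3087 with vemurafenib against 1155 to 2016 with vehicle, led by COL1A1 (2444 to 2772 against 1026 to 1755). The muscle genes DES (32.9 to 48.3 against 17.9 to 29.1) and ACTA1 (230.1 to 271 against 79.2 to 226) also had no overlap there. The sums of the lists that hold DES and ACTA1 overlapped, however. The pericyte and smooth muscle sum was 1610 to 1894 with vemurafenib against 1612 to 2547 with vehicle. The skeletal muscle sum was 286 to 382 against 116 to 327. In lone tumours, where TPM2 in normalised reads was lower, the fibroblast sum was higher too (2342 to 3172 against 1215 to 1524). Nearly all of that rise was COL1A1 (mean 2491 against 1168). The part of these markers in the TPM2 difference was not tested.

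Between mixed and lone A375R tumours at the same treatment, no member passed in limma. With vemurafenib 0 of 9 passed (2 at an unadjusted p under 0.05 in limma and 2 in edgeR, which called 0), where 0.240% of all genes did, and with vehicle 0 of 9 passed (3 in limma and 2 in edgeR at an unadjusted p under 0.05, and 0 called by edgeR), where 3.30% did. These contrasts were among those that chose the genes, so the counts are a description and nothing is read from them. With vemurafenib, ACTA2 was 0.51 ± 0.20 and TPM2 0.44 ± 0.12 higher in mixed than in lone tumours, with no overlap in normalised reads. For ACTA2 the lowest mixed library had 486 and the highest lone library 483. In RPM the ACTA2 groups overlapped, with the lowest mixed library at 14.33 and the highest lone library at 14.88. The TPM2 groups stayed apart in RPM. The widest gap that did not overlap was in TAGLN with vehicle, at 281, 379.8 and 296 normalised reads in mixed tumours against 149.9, 182 and 175 in lone tumours (0.90 ± 0.28), with no overlap. Melanoma markers moved with that contrast. Their summed level was 1298 to 1975 in mixed vehicle tumours against 482 to 812 in lone vehicle tumours, and SOX10 averaged 789 and 101 in these groups. Their part in the TAGLN difference was not tested. Fewer tagged cells of a type and less RNA per cell cannot be told apart in such bulk samples.

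**Figure D4:**
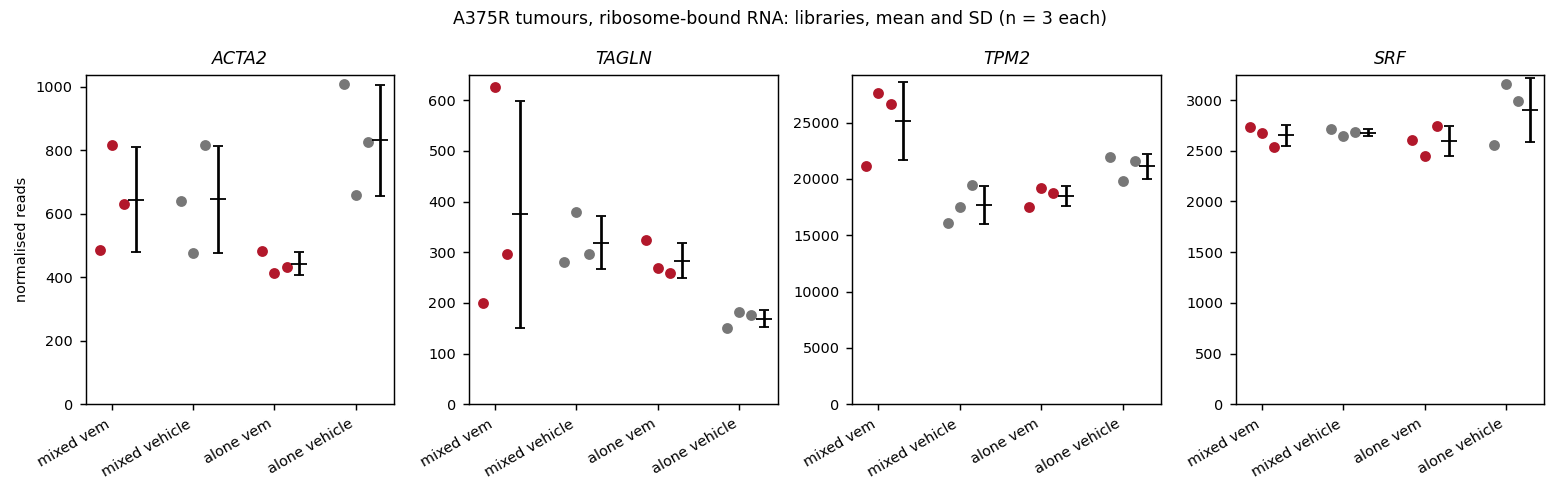
Normalised reads of ACTA2, TAGLN, TPM2 and SRF in A375R tumours, mixed with A375 cells or alone, with vemurafenib (red) or vehicle (grey), 1 point per library with the mean and SD beside them (n = 3 each). TPM2 with vemurafenib sits above vehicle in mixed tumours and below it in lone tumours, and 1 mixed vemurafenib library holds the TAGLN value of 627.

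Markers of cells that normally carry contractile genes were also read. The 8 markers of pericytes and smooth muscle summed to 2150 to 3179 normalised reads in A375 tumours with vemurafenib, against 1614 to 2001 with vehicle, so the sum moved with ACTA2, TAGLN and MYL9. CSPG4, which melanoma cells also express, made up most of it (mean 2152 against 738), while RGS5 (79.6 against 171) and PDGFRB (171 against 468) averaged lower with the drug, MYH11 averaged 199 against 204, and DES and ACTG2 averaged under 4 in both groups. Fibroblast markers summed to 739 to 929 with vemurafenib and 784 to 1306 with vehicle, and THY1 averaged 1.49 and 0.618 in these groups. Within that sum COL3A1 (335 against 57.8) and POSTN (37.6 against 7.89) averaged higher with vemurafenib, while COL1A2 (25.9 against 275), PDGFRA (14.6 against 136) and COL1A1 (378 against 480.1) averaged lower. Melanoma markers moved too, with 13304 to 18158 against 1982 to 2642, and SOX10 averaged 6775 with vemurafenib against 785 with vehicle. In A375 cultures, which hold 1 cell line, the pericyte sum was 3429 to 4450 at 48 h against 10921 to 19134 with vehicle, while ACTA2 was higher. That fall was led by CSPG4 (mean 3355 against 14424), and the rest of the list was mixed. PDGFRB (323 against 190) and RGS5 (43.1 against 32.3) averaged higher at 48 h, and NOTCH3 (102 against 145) and MYH11 (124 against 200) lower. The PDGFRB libraries did not overlap (297 to 341 against 143 to 272). In A375R tumours alone the fibroblast sum was 2342 to 3172 with vemurafenib against 1215 to 1524 with vehicle, beside lower ACTA2 and higher TAGLN. Nearly all of that rise was COL1A1 (mean 2491 against 1168). COL3A1 (30.4 against 26.4), DCN (47.8 against 38.7), FAP (64.4 against 47.1) and POSTN (25.2 against 13.1) averaged higher too. COL1A2 (10.4 against 12.2), LUM (17.6 against 21.9), PDGFRA (7.37 against 9.87) and THY1 (0.967 against 2.21) averaged lower. The leukocyte list, nearly all CD68, summed to 3834 to 5983 with vemurafenib against 7573 to 9756 with vehicle there. The part of such cells in these values was not tested, and the labels do not say how mouse reads were treated.

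Other contractile genes gave no single direction. Over all genes tested, 4.40% passed at 6 h and 50.0% at 48 h in A375 cultures, 73.3% in Colo800, 56.5% in UACC62, 46.1% in H3122 and 68.3% in A375 tumours, with about as many higher as lower except at 6 h (148 higher, 460 lower), and the counts of each list below are to be read beside these shares. Of the list of 21 contractile apparatus genes, which holds no member, 1 of 19 tested was higher at 6 h in A375 cultures (median log2 -0.06; all genes 0.00), and 7 were higher and 7 lower of 19 at 48 h (median -0.08; all genes 0.00). MYLK, the kinase that activates myosin light chains, rose by 1.40 ± 0.32 at 6 h (limma adjusted p = 0.0321) and 1.53 ± 0.32 at 48 h (limma adjusted p = 0.00239), and in UACC62 by 0.97 ± 0.11 (limma adjusted p = 8e-05). LMOD1, a leiomodin of smooth muscle, rose by 1.74 ± 0.31 at 48 h in A375 cultures (limma adjusted p = 0.000954) and by 3.44 ± 0.26 in A375 tumours (limma adjusted p = 5.35e-09), where it had 125 ± 21.6 with vemurafenib against 11.1 ± 4.68 with vehicle (SD, n = 4 each). In Colo800 2 were higher and 13 lower of 19 (median -0.32), in UACC62 4 and 7 of 19 (median -0.17), in H3122 14 of 18 were lower (median -0.43), and in A375 tumours 8 were higher and 9 lower of 19 (median -0.23).

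The near copies of the members moved in both directions. TAGLN2, a transgelin of non-muscle cells, fell where TAGLN was higher, by 1.10 on the log2 scale at 48 h in A375 cultures (± 0.12, limma adjusted p = 3.77e-05), by 1.34 in Colo800 (± 0.04, adjusted p = 2.85e-15), by 0.31 in UACC62 (± 0.09, adjusted p = 0.0188), by 0.28 in H3122 (± 0.09, adjusted p = 0.0288) and by 1.33 in A375 tumours (± 0.10, adjusted p = 4.57e-09). TPM3 and TPM4 fell in all 5 contrasts of 48 h cultures and A375 tumours, TPM3 by 0.37 to 1.05 and TPM4 by 0.32 to 0.99 on the log2 scale. MYL12A changed by -0.08 ± 0.14 (limma adjusted p = 0.653) at 48 h in A375 cultures, where MYL9 was higher, and fell by 0.39 in A375 tumours (± 0.08, limma adjusted p = 0.000645). MYL12A fell in Colo800 and H3122 too (-0.81 and -0.55) and rose in UACC62 (0.50, limma adjusted p = 0.00643). MYL12B fell by 0.31 at 48 h in A375 cultures (± 0.12, limma adjusted p = 0.0479) and by 0.48 in Colo800, rose by 0.34 ± 0.10 in A375 tumours (adjusted p = 0.00464), and was not past the threshold in UACC62 (0.10) or H3122 (-0.08). CNN2, a calponin of non-muscle cells, fell by 0.25 in Colo800 (± 0.07, limma adjusted p = 0.00309) and by 0.85 in H3122 (± 0.09, adjusted p = 1.37e-05), and rose by 1.02 ± 0.13 in A375 tumours (adjusted p = 4.03e-06). It changed by -0.22 at 48 h in A375 cultures and by 0.21 in UACC62, neither past the threshold. ACTG2 averaged at most 4 reads in any A375 or A375R group.

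Actin and focal adhesion genes were more often lower than higher past the threshold in the cultures and A375 tumours. Of 20 on the list, 4 of 19 tested were lower at 6 h in A375 cultures, 8 were lower and 1 higher of 19 at 48 h, 16 lower and 1 higher of 20 in Colo800, 8 lower and 2 higher of 18 in UACC62, 16 lower and 2 higher of 20 in H3122, and 10 lower and 5 higher of 19 in A375 tumours. The share past the threshold in either direction was close to that of all genes at 48 h in A375 and in UACC62, and above it in the other 4 contrasts. Their medians were -0.25, -0.52, -0.47, -0.18, -0.43 and -0.26 on the log2 scale, where those of all genes lay between -0.01 and 0.00. ACTN1, the alpha-actinin that binds vinculin, had 999 ± 178 normalised reads at 48 h in A375 cultures against 4699 ± 120 with vehicle (-2.25 ± 0.15, limma adjusted p = 2.98e-06). It fell by 2.85 in Colo800 (± 0.04, limma adjusted p = 1.19e-19), by 2.15 in UACC62 (± 0.11, adjusted p = 1.15e-06) and by 1.04 in A375 tumours (± 0.09, adjusted p = 3.94e-08) on the log2 scale. Gelsolin, GSN, which severs filaments, rose by 1.08 ± 0.09 in H3122 (limma adjusted p = 1.87e-06) and 2.29 ± 0.10 in A375 tumours (adjusted p = 8.06e-12).

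The immediate early targets of SRF and its ternary complex factors fell in A375, Colo800 and H3122 cultures. Of 9 genes, 7 of 8 tested were lower at 6 h in A375 cultures (median -1.74), 8 of 8 at 48 h (median -2.20), 9 of 9 in Colo800 (median -1.90) and 7 of 8 in H3122 (median -1.25), against 4.40%, 50.0%, 73.3% and 46.1% of all genes. In UACC62 4 of 9 were lower (median -0.30; 56.5% of all genes past the threshold) and FOS rose by 1.10 ± 0.12 (limma adjusted p = 9.26e-05). EGR3, a zinc finger factor, fell by 4.91 (± 0.29, limma adjusted p = 1.69e-06) at 48 h in A375, by 6.62 (± 0.12, adjusted p = 6.91e-19) in Colo800 and by 4.11 (± 0.17, adjusted p = 3.07e-07) in UACC62 on the log2 scale. A375 tumours after 10 doses differed, with 4 higher and 4 lower of 9 (median -0.01). The orphan receptor NR4A1 had 1334 ± 369 normalised reads there with vemurafenib against 103 ± 42.3 with vehicle (3.73 ± 0.23, limma adjusted p = 3.66e-10), while at 48 h in culture it had 284 ± 91.0 against 3934 ± 723 with vehicle (-3.83 ± 0.26, adjusted p = 2.67e-06). Tumour and culture differ in RNA kind, dose and time, and were fitted apart.

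Among the partners of SRF, MKL1 rose by 0.47 ± 0.07 in Colo800 (limma adjusted p = 5.75e-06), 0.69 ± 0.11 in UACC62 (adjusted p = 0.000692) and 0.44 ± 0.09 in H3122 (adjusted p = 0.00206), and MKL2 by 0.73 ± 0.20 at 48 h in A375 cultures (adjusted p = 0.0116). ELK3 fell by 1.59 on the log2 scale at 6 h in A375 cultures (± 0.18, limma adjusted p = 0.000608), by 0.88 at 48 h (± 0.18, adjusted p = 0.00196), by 2.06 in UACC62 (± 0.15, adjusted p = 8.76e-06) and by 1.40 in A375 tumours (± 0.14, adjusted p = 1.68e-07). Of 11 on this list, 1 of 9 tested was lower at 6 h in A375 cultures, 1 was higher and 2 lower of 9 at 48 h, 3 and 5 of 9 in Colo800, 1 and 3 of 9 in UACC62, 4 and 4 of 10 in H3122, and 3 and 4 of 9 in A375 tumours, beside the shares of all genes given above for those contrasts.

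In A375R tumours 0.792% of all genes passed in limma in lone tumours and 3.48% in mixed tumours. In lone tumours with vemurafenib against vehicle, the contractile apparatus list had 0 of 17 past the threshold (3 at an unadjusted p under 0.05; edgeR 0, with 2), actin and focal adhesion 0 of 20 (5; edgeR 0, with 5), immediate early 0 of 9 (2; edgeR 0, with 1) and SRF cofactors 0 of 9 (2; edgeR 0, with 2). In mixed tumours TES, a focal adhesion protein, rose by 0.50 ± 0.12 (limma adjusted p = 0.0302) and ELK3 fell by 0.52 (± 0.12, adjusted p = 0.0242), each the 1 gene past the threshold of its list (20 and 9 tested). There the contractile apparatus list had 0 of 17 (1; edgeR 0, with 1) and immediate early 0 of 9 (2; edgeR 0, with 2).

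**Figure D5:**
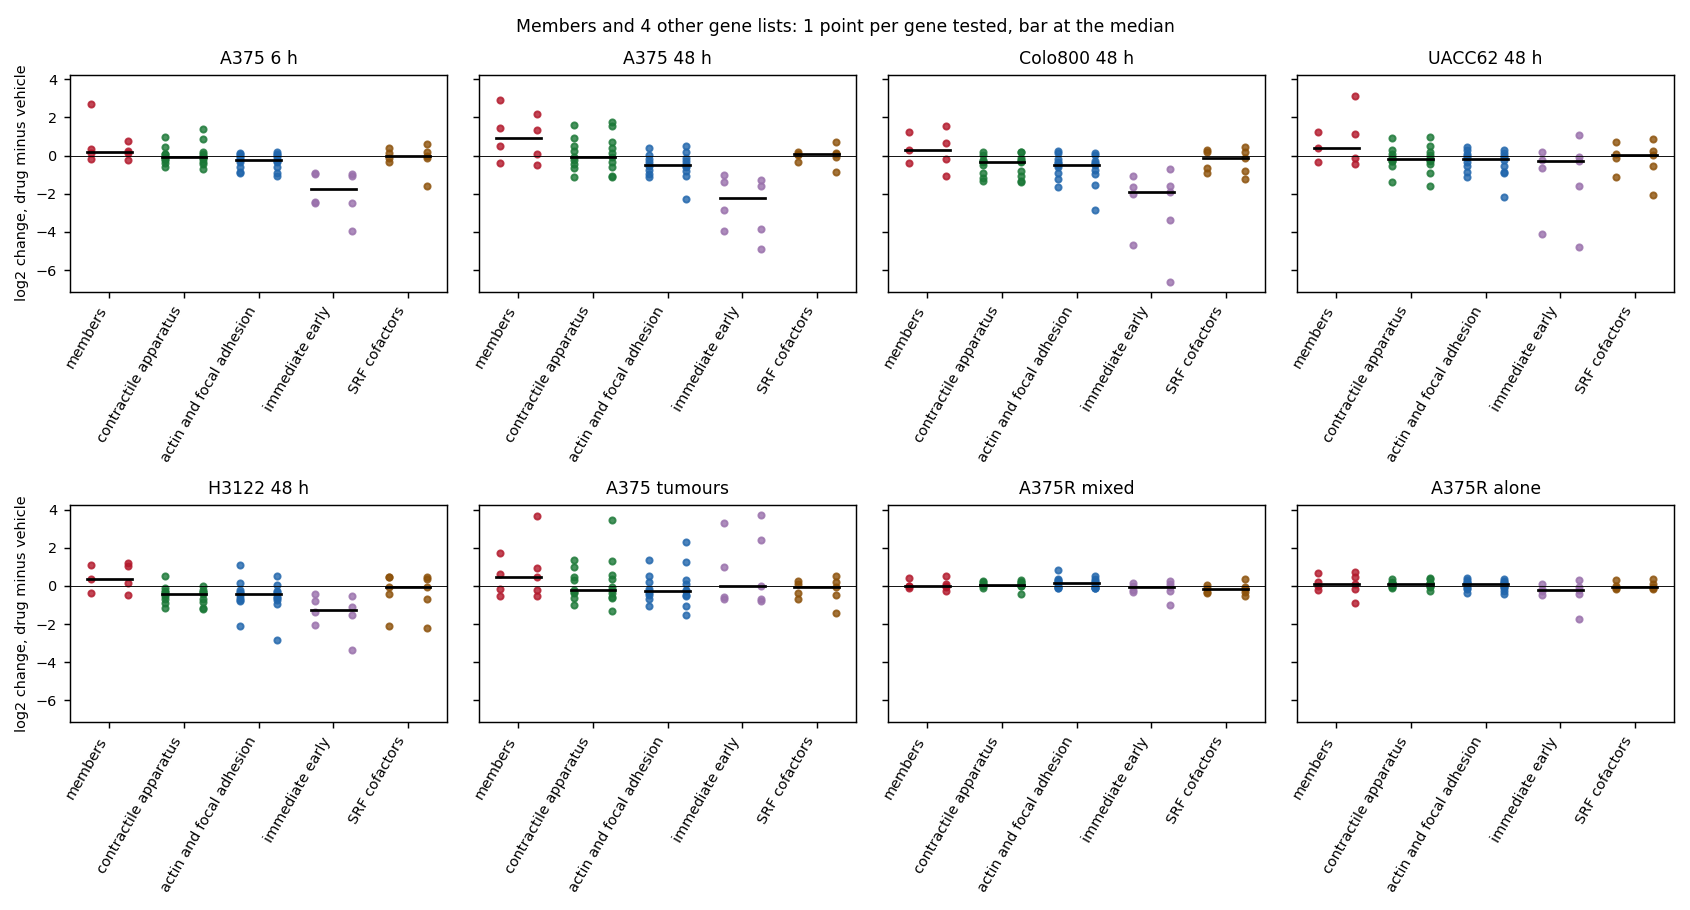
Log2 change with the drug (drug minus vehicle) of each tested gene in the set of 9 and in 4 other lists, for 8 contrasts, with a bar at each list's median. Immediate early genes lie below 0 in A375, Colo800 and H3122 cultures, and the points of all lists draw in around 0 in A375R tumours.

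Genes with the most similar course over the 8 contrasts of drug with vehicle were sought among the 11231 genes tested in every table, by the root mean square difference of log2 changes. SRF was closest to GTF2E2 (0.079), SEC23B (0.093) and MAPKAPK5 (0.101). ACTA2 was closest to TTYH2 (0.348), LOC100272228 (0.355) and DBP (0.365), and TAGLN to C9orf103 (0.288), COL18A1 (0.307) and POU6F1 (0.312). TPM1 had EMB, KIAA1671 and ZIK1 (0.171 to 0.183), TPM2 had CEP95, C11orf2 and ZNHIT3 (0.125 to 0.173), and VCL had LSS, TNKS1BP1 and GNA12 (0.116 to 0.170). No member was among the 3 closest genes of another. The distance between ACTA2 and TAGLN was 0.848 and that between SRF and ACTA2 was 1.498. The 6 h and 48 h contrasts in A375 cultures share their vehicle libraries. CNN1, MYL9 and PHACTR1 were not tested in every table and have no such value.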

How the data were processed

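The deposited values are a signal, reads per gene divided by a size factor of the library, as the authors deposited them. Per the submitters' processing notes the tools named were STAR 2.3.0e, HTSeq 0.5.4 and DESeq 1.18.0, with the builds hg19 and mm9 and no roles given. Whole reads were recovered from the steps of each library for 100% of values (tolerance 0.1, largest deviation 0.00039), which gave the depths of 8063754 to 42843612 reads; the number of reads sets the precision of low values. Genes with a mean of at least 10 were tested per table, with all groups of that table in the fit, by limma 3.58.1 (R 4.3.3) on log2(value + 1) with its trend option, two-sided, with Benjamini-Hochberg adjustment over all genes and a threshold of 0.05. A fold on that scale understates the change of low genes. The steps were also run on simulated counts with 1 spread for all genes and independent libraries. That setting is simpler than these data, and nothing is read from it here.

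The members and lists were chosen with earlier results of these data known. Of those lists 1 is not reported here. Of each list at most 2 genes per direction and comparison are named, those with the smallest adjusted p past the threshold, and near copies of members may be named whatever they did. Libraries with the same replicate number in the titles deviated together in A375 cultures between vehicle and 6 h (correlations 0.567, 0.31 and 0.566) and between 6 h and 48 h (0.436, 0.197 and 0.41), and less so between vehicle and 48 h (0.402, 0.028 and 0.32). Alternatives were pseudocounts of 0.5 and 5, no filter or a filter at 50, quantile normalisation, a replicate block, edgeR 4.0.16 (quasi-likelihood, TMM) on recovered reads, and leaving out each library. The edgeR test called 600 genes at 6 h and 6896 at 48 h in A375 cultures. Promoters and overlaps are from RefSeq on GRCh38.p14, and 7 of the 9 genes matched a promoter entry; no coordinates were converted between builds.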

Additional observations from a re-analysis of the deposited data

Results flagged for a closer look

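VCL in A375 tumours with vemurafenib had 1 library far from the other three of its group, with 537 normalised reads beside 459.9 to 469.6, a gap of 0.875 of the group's range. This was 1 of 18 groups of 4 examined, and chance gives about 1 in 20. The log2 response of TPM2 to vemurafenib differed between mixed and lone A375R tumours by 0.70 in the interaction test (limma adjusted p = 0.0388). That p is not independent of the choice of the genes, which used the same libraries, and the call was lost without any of 8 of the 12 libraries. In normalised reads the directions were opposite in every library of the 2 kinds of tumour, but in RPM the lone groups overlapped (539 to 604 against 564 to 596).

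Opposite directions in every library were also seen in contrasts from separate tables, whose difference was not tested. For ACTA2 the change in A375 tumours was 1.53 above that in A375R tumours alone, on the log2 scale. For TPM2 the 48 h change in UACC62 was 0.79 above that in A375 cultures, and for VCL the 48 h change in A375 cultures was 0.98 above that in H3122.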

How the results depend on the processing

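In contrasts that chose the genes, a member log2 change counted as kept when it moved by at most the pooled SD of its libraries. Its side of the threshold was not used there, so a kept change could still lose its call. A reversal there was counted only for genes past the threshold in the main fit. In the other contrasts, kept meant the same sign and side of the threshold. By these rules 1254 comparisons with an alternative were kept and 16 reversed. Reversed were, between 48 h and 6 h, PHACTR1 (range -0.072 to 0.47 when libraries were left out in turn), and in the A375R interaction CNN1 (0.021 with quantile normalisation; -0.24 to 0.23 leaving out libraries), TPM1 (-0.16 with quantile normalisation; -0.17 to 0.22) and MYL9 (-0.31 to 0.044). With the replicate block 2 members passed at 6 h in A375 cultures and 4 between 48 h and 6 h, and 1 in that contrast passed with the filter at 50. In H3122 3 passed with no filter, 2 with the filter at 50, 2 with quantile normalisation, and 2 to 5 leaving out libraries, which gave 3 to 7 in UACC62. In A375R tumours alone 0 passed with a pseudocount of 5, with no filter, with edgeR and without any 1 library. In mixed tumours 0 passed with quantile normalisation and 0 to 1 leaving out libraries, and in the interaction 0 passed with no filter, 0 with quantile normalisation and 0 to 2 leaving out libraries. The cause was not tested. Over all genes, the block called 1462 against 608 at 6 h in A375 cultures and 298 against 109 in A375R alone, where no filter called 14 and leaving out libraries 1 to 326. Mixed against alone with vemurafenib had 33 calls, 11 with no filter, 10 with quantile normalisation, 13 with edgeR and 65 with the block; with vehicle it had 454, and 297 with the filter at 50. The interaction had 397, and 185 with no filter. Leaving out libraries gave 309 to 641 at 6 h, 96 to 563 in mixed tumours, 1 to 38 and 109 to 660 between mixed and lone tumours with vemurafenib and with vehicle, and 10 to 526 in the interaction. VCL in UACC62 also changed sign without vemurafenib library 1 (0.13). The block gained TPM2 in UACC62 (0.38). A crossed pairing of the H3122 libraries, chosen after seeing the data, added 1 member call. Low counts limit CNN1 in culture, MYL9 in Colo800 and UACC62 and PHACTR1 in H3122.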
